A study of Equus caballus with 3 samples.

Results

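Among the 5403 kept cells of the equine adipose tissue (AT) derived mesenchymal stromal cell (MSC) library, 775 cells held 20 or more UMIs of ID1 and ID3 together per 10,000 UMIs. These ID1 and ID3 high AT-derived MSCs were chosen by those measured values, so their ID1 and ID3 levels are given only as a description. The class made up 14.3% of the kept AT cells (95% Clopper-Pearson interval 13.4 to 15.3, counting error only), and the 4628 other kept cells form the comparison. A kept cell had 2500 to 15000 UMIs, the unique molecular identifiers that count captured transcripts, and at most 3% of them on the mitochondrial chromosome. Over the 3 libraries of the series 16301 cells were kept.

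The mare that gave the AT cells, a healthy warmblood 10 years old, also gave MSCs from marrow (BM) and from blood (PB). No treatment or genetic change is named for any of them, and all had been grown through 2 passages, so that they are cultured cells and not cells taken directly from tissue. Each source gave 1 droplet scRNA-seq library with 3′ end counts. The sources are those of the sample titles, whereas another label names blood mononuclear cells for each of the 3. With 1 library of 1 animal no difference below has a replicate check, no test across cells was made, and every interval covers counting error alone.

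ID proteins are helix-loop-helix proteins that lack a DNA-binding region. They bind the E proteins, such as those encoded by TCF3, TCF4 and TCF12, and thereby keep E proteins and their lineage-restricted partners from DNA. In stromal and many other cells the ID genes are well known targets of bone morphogenetic proteins (BMPs), whose receptors phosphorylate SMAD1, SMAD5 and SMAD9, and ID proteins are linked to proliferation and to the delay of differentiation. SMAD6 and SMAD7 are inhibitors that the pathway itself induces.

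In the deposited matrices ID1 lies on chromosome 22, ID2 on chromosome 15, ID3 on chromosome 2 and ID4 on chromosome 20 of EquCab3.0, so the 4 genes are not neighbours. The class held 5577087 UMIs and the cells below the cut 34403569. Summed over cells, ID1 stood at 2010.4 counts per 1000000 UMIs (CPM) in the class and at 237 CPM below the cut. ID3 stood at 1262 CPM in the class and at 298 CPM below it. A class cell held a median of 13 ID1 UMIs, with quartiles of 8 and 19 and a highest value of 93. For ID3 the median was 8 UMIs, with quartiles of 5 and 12 and a highest value of 43. ID1 exceeded ID3 in 541 class cells, ID3 exceeded ID1 in 200, and 34 held the same number of each. In 773 of the 775 class cells both genes had a UMI, against 1901 of the 4628 cells below the cut. Across the 5403 cells the log2 levels of ID1 and ID3 had a Pearson r of 0.556, a description over cells that share a library and differ in depth.

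The level of ID1 and ID3 together ran without a gap through the cut and the class is described here as a range of that level. The median over all kept AT cells was 4.73 per 10,000 UMIs, and 987 cells (18.3%) had no UMI of either gene. Between 18 and 20 per 10,000 lay 129 cells, and between 20 and 22 lay 106. The cells closest to the cut had 19.9971 per 10,000 outside the class and 20 inside it. Within the class the quartiles were 23.8, 29.1 and 38.2 per 10,000, and the highest cell reached 104.

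**Figure D1:**
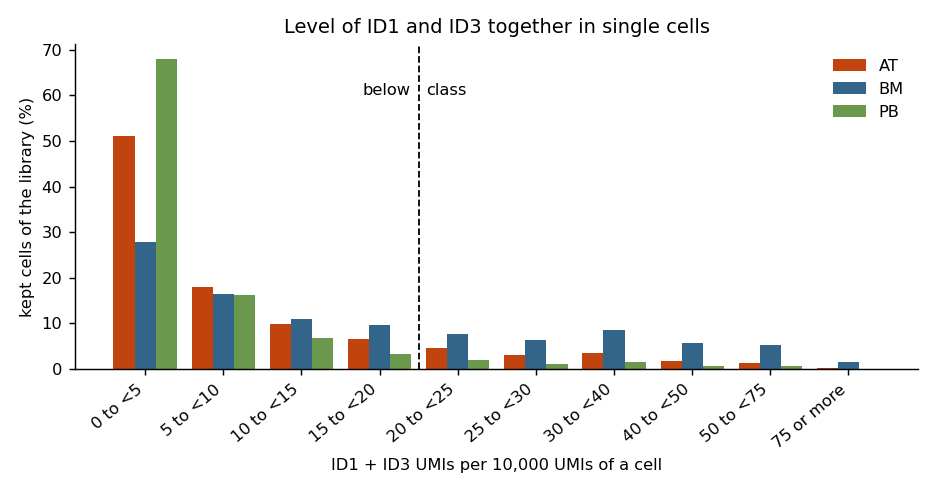
Share of the kept cells of each library, in percent, in bins of ID1 and ID3 UMIs per 10,000 UMIs of a cell, with the dashed line at the cut of 20. The bins are not of equal width. The AT shares fall from 51.2% under 5 to 4.57% at 20 to under 25 with no second peak, and the AT bars above the cut lie between those of BM and PB.

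The same rule took 1954 of 5580 kept BM cells (35.02%, interval 33.8 to 36.3) and 315 of 5318 kept PB cells (5.92%, interval 5.30 to 6.59). Each share comes from 1 library, and the difference between sources was not tested. Of the class barcodes, 7 were also kept in the BM library and 6 in the PB library, and 3 of these were in the class of BM as well.

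When the UMIs of each AT cell were split at random into a pair of parts, the rule applied to one part took 806 cells. In the other part, which the rule had not used, ID1 stood at 1818 CPM in these cells against 261 CPM in the rest, and ID3 at 1123 against 314 CPM. Of the 806 cells, 546 (67.7%) were at 20 or more per 10,000 in the unused part as well, against 237 of 4597 (5.16%). Both parts hold the genes of the rule in the same cells. These values therefore describe counting error in the choice of cells and are no evidence for a distinct class. After thinning to 2500 UMIs, 671 of the 775 class cells still met the rule, as did 262 cells from below the cut.

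Depth and quality were similar on the 2 sides of the cut. Class cells had a median of 7138 UMIs, 2056 genes and 1.49% mitochondrial UMIs, and cells below had 7329 UMIs, 2066 genes and 1.41%. By quartile of UMIs per cell, the class held 13.0% of the shallowest cells, 17.7% and 15.7% of the middle quartiles and 11.0% of the deepest. The 2 inner quartiles thus had the larger shares. Among the 5% of kept cells with the highest Scrublet score, a doublet score, were 33 class cells (4.26%) and 237 of the others (5.12%).

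The AT cells expressed MSC surface genes, and some but not all markers of other lineages were at 0. In the class and below it, SOX9 had 12 and 51 UMIs, PPARG 3 and 50, RUNX2 3 and 30 and VWF 0 and 3. Contractile genes of smooth muscle were well detected and are described below. On the list of 16 MSC surface genes, 14 had UMIs, and their summed level was 5146 CPM in the class and 4461 CPM below it. CD63 (1689 and 1468 CPM) and B2M (1302 and 1101 CPM) led that sum. NT5E (1 and 8 UMIs), VCAM1 (2 and 18) and CD34 (2 and 24) counted among the 14 but were hardly detected. The study gives CD34 as a marker that MSCs lack. PTPRC, CD3E and CD14, which mark blood cells, had no UMI in any kept AT cell, and the haematopoietic list summed to 11.3 CPM in the class and 10.2 CPM below. The endothelial markers PECAM1, CDH5 and KDR were also at 0. For a count of 0 in the class, 3 UMIs or 0.538 CPM were taken as the limit, a one-sided value, and the two-sided Poisson interval used for levels ends at 0.661 CPM. That list summed to 93.8 against 64.3 CPM, and ENG, which MSCs also express, made up 85.7 and 58.3 CPM of these sums. EPCAM and CDH1 of epithelium, SOX10 of Schwann cells and COL2A1 of cartilage were at 0, but other members of these lists were detected. The epithelial list summed to 36.9 and 47.1 CPM, nearly all of it KRT8 (36.6 and 46.8 CPM), the Schwann and neural list to 27.6 and 27.7 CPM, with NCAM1 at 16.3 CPM on both sides, and the chondrocyte list to 11.8 and 17.1 CPM, with COL11A1 at 6.28 and 10.8 CPM.

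Away from ID1 and ID3, few genes differed between the class and the other AT cells. Of 3707 genes with at least 25 CPM over all kept AT cells, 14 were higher in the class by 0.5 or more on the log2(CPM + 1) scale, which is 0.378% of the genes, and 18 were lower, which is 0.486%. This scale understates folds of low genes. The median difference over all 3707 genes was 0.04, and the central 95% of genes lay between -0.28 and 0.32. Of the genes called, 13 of the higher and 17 of the lower carry a symbol, and they are described below with the next genes in rank.

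ID2 showed the largest difference of all these genes. It stood at 158 CPM in the class (147 to 168, 95% Poisson interval, as for all CPM intervals) and at 45.2 CPM below (43.0 to 47.5). The difference was 1.78, with bounds of 1.61 and 1.95 from the opposite ends of the counting intervals. A UMI of ID2 was found in 459 of 775 class cells (59.2%) and in 1056 of 4628 others (22.8%). After thinning every cell to 2500 UMIs the shares were 31.5% and 9.29%. How often free RNA alone gives a cell a UMI of ID2 was not measured, since no cell type that should lack ID2 was identified. Within the class, ID2 was at a like level whichever of the 2 rule genes led. It was 158 CPM (146 to 171) in class cells with more ID1 and 158 CPM (138 to 181) in class cells with more ID3. Below the cut it was 63.5 CPM in cells with more ID1, 45.8 CPM in cells with more ID3 and 25.1 CPM in cells with equal numbers, most of them at 0 for both.

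ID4, the fourth member of the family, lay under the level of 25 CPM and was not among the genes counted. Its level was 34.4 CPM in the class (29.7 to 39.7) and 10.5 CPM below (9.47 to 11.7), a difference of 1.62 with bounds of 1.28 and 1.96. A UMI of ID4 was seen in 20% of class cells and 6.78% of the others, or in 8% and 2.81% after thinning. In each of the 3 libraries the cells taken by the rule were also the higher ones in ID2 and ID4. In BM the ID2 levels were 257 and 78.9 CPM and the ID4 levels 29.6 and 13.1 CPM, differences of 1.69 and 1.12. In PB they were 192 and 41.6 CPM for ID2 and 13.9 and 2.66 CPM for ID4, differences of 2.18 and 2.03.

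ID2 was also graded along the level of ID1 and ID3 on the side below the cut. It stood at 25.8 CPM in the 2766 cells under 5 per 10,000, at 53.1 CPM in the 972 cells from 5 to under 10 and at 94.9 CPM in the 890 cells from 10 to under 20. Within the class it stood at 145 CPM (131 to 159) in the 413 cells from 20 to under 30, at 157 CPM (140 to 175) in the 282 cells from 30 to under 50 and at 233 CPM (194 to 278) in the 80 cells at 50 or more. The steps were outside the counting intervals except between the bins from 20 to under 30 and from 30 to under 50.

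**Figure D2:**
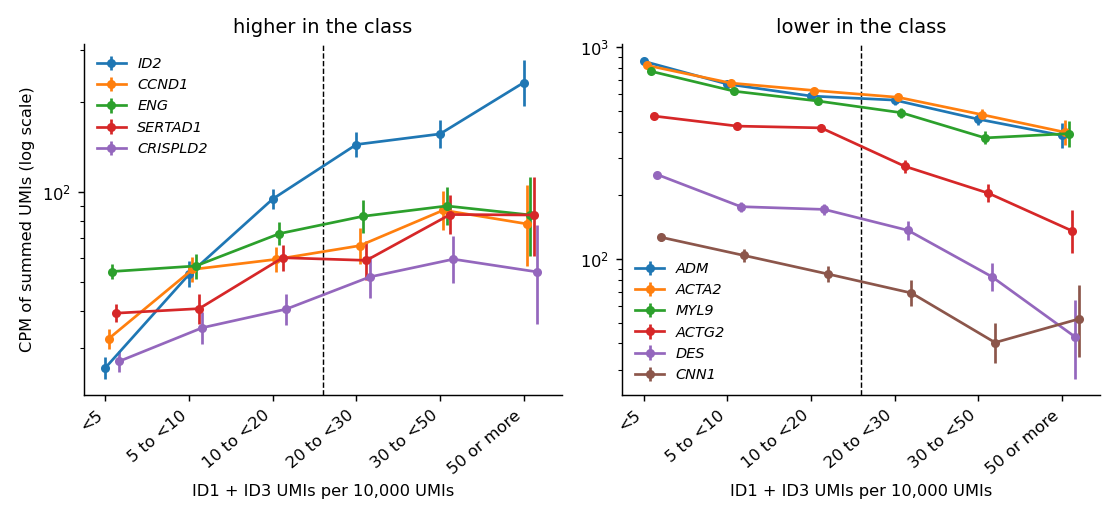
CPM of summed UMIs, on a log axis, of genes higher (left) and lower (right) in the class, in 6 bins of ID1 and ID3 UMIs per 10,000 UMIs of an AT cell, with 95% Poisson intervals of the sums and a dashed line at the cut. ID2 goes from 25.8 to 233 CPM and DES from 251 to 42.9 CPM, in steps on either side of the cut.

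Most BMP targets lay under 25 CPM, so they were also read by a looser rule, a difference of 0.5 or more at any level with counting bounds that exclude 0. By this rule 8 of the 30 BMP targets with UMIs in AT were higher in the class, ID2 and ID4 included. Of the 17240 genes with a UMI, 0.621% were higher in the class and 0.563% lower, and 0 of the 30 targets were lower. SMAD6 stood at 8.43 CPM in the class and 3.66 CPM below it, a difference of 1.02. SMAD7, the other inhibitory SMAD, stood at 11.7 and 6.63 CPM, a difference of 0.73. SMAD9, a receptor-activated SMAD that is itself induced by BMPs, stood at 8.61 and 4.65 CPM, a difference of 0.77. The Notch and BMP target HES1, a repressor of the HES family, stood at 33.7 and 20.6 CPM, a difference of 0.68. DLX3, a homeobox gene, and SNAI2, a zinc finger repressor of mesenchyme, differed by 0.91 and 0.67 at 3.23 and 11.5 CPM in the class. HEY1, a relative of HES1, had a difference of 0.59, but its bounds of -0.05 and 1.21 included 0.

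Only 5 targets reached 25 CPM, and ID2 was the 1 among them that was called. Of all 3707 genes, 0.378% were called higher and 0.486% lower. GATA2 differed by 0.39, JUNB by 0.34 and FOS by 0.24. The median of the 5 was 0.34, beside 0.04 over all genes tested. The remaining target, whose value is not given here, lay at or below that median. The same 5 genes had a median of 0.15 in BM and of -0.09 in PB. The list was chosen with the ID genes in view, and JUNB and FOS answer to many other signals. RUNX2 (0.538 and 0.872 CPM), DLX5 (0.359 and 0.291 CPM) and MSX2 (0.359 and 0.378 CPM), targets known from bone, were hardly detected.

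**Figure D3:**
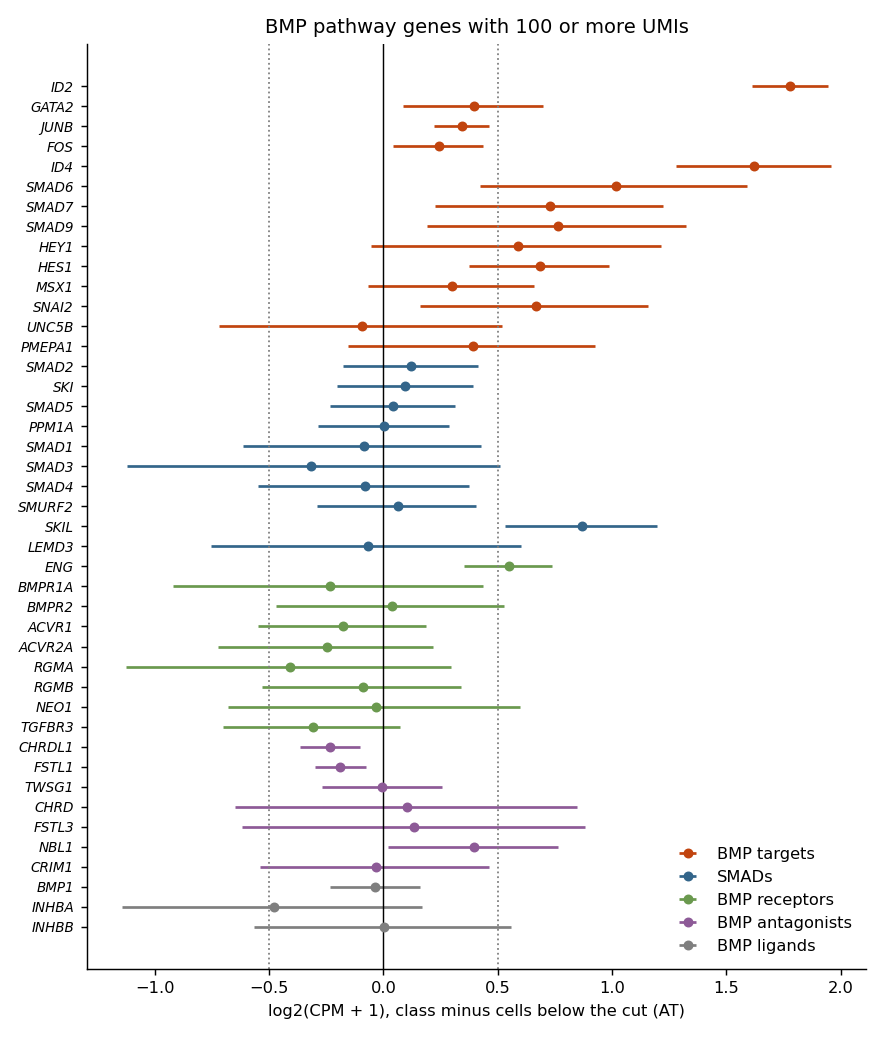
Difference of log2(CPM + 1) between the class and the AT cells below the cut for 43 genes of 5 BMP lists with at least 100 UMIs, ID1 and ID3 left out. Bars run between the bounds given by the counting intervals, and dotted lines mark 0.5 either way. The targets lie mostly to the right of 0, and of the ligands, receptors and antagonists shown ENG alone passes 0.5.

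Among ligands and receptors, ENG was the 1 gene that met either rule. Of all genes, 0.378% were higher and 0.486% lower by the first rule, and 0.621% and 0.563% by the looser rule. At such shares the lack of other calls is no result about these lists. Of 18 ligand genes in the matrix, 10 had UMIs, and BMP1, a protease despite its name, was the 1 with over 25 CPM (71.9 and 73.7 CPM, difference -0.04). Transcripts of BMP2 (0 and 4 UMIs) and BMP4 (4 and 40 UMIs) were rare in the class and below it, and BMP5, BMP7 and GDF5 had no UMI. INHBA and INHBB, the activin subunits, stood at 4.30 and 6.39 CPM and at 7.35 and 7.32 CPM. Of 14 receptor and co-receptor genes, 13 had UMIs. The type I receptor BMPR1A stood at 4.12 and 5.03 CPM, ACVR1 at 19.0 and 21.6 CPM and the type II receptor BMPR2 at 9.86 and 9.59 CPM, and BMPR1B had no UMI. ENG, a co-receptor for BMP and TGF-beta ligands also known as CD105, was the 1 receptor gene that was called. It stood at 85.7 CPM (78.2 to 93.7) in the class and 58.3 CPM (55.8 to 60.9) below it, a difference of 0.55 with bounds of 0.35 and 0.74. The difference was short of 0.5 after thinning to 2500 UMIs (0.48), with class and genes read from separate UMIs (0.496), with a pseudocount of 25 CPM (0.41), within quartiles of the contractile list (0.48) and among cells called S or G2M (0.33). Its levels were 69.9 and 61.2 CPM in BM and 70.0 and 70.5 CPM in PB.

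The inhibitory SMADs and SMAD9 are given above. The signal transducers SMAD1 (-0.09), SMAD5 (0.04) and SMAD4 (-0.08) had differences whose bounds included 0, as did SMAD2 (0.12) and SMAD3 (-0.32), which serve TGF-beta. SKIL, a corepressor that binds SMADs, stood at 29.6 and 15.8 CPM, a difference of 0.87 with bounds of 0.53 and 1.198. In BM the SKIL levels were 23.1 and 11.2 CPM and in PB 36.2 and 17.6 CPM. Of 18 antagonist genes, 13 had UMIs. CHRDL1, a secreted BMP binder, stood at 154 and 181 CPM (difference -0.23) and FSTL1 at 222 and 253 CPM (difference -0.19), both short of 0.5. NOG stood at 1.61 and 0.959 CPM and GREM1 at 0.359 and 0.407 CPM.

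The binding partners of ID proteins were read by the same rules. Of 17 genes on the list of E proteins and partners, 15 had UMIs, and 0 met either rule. Over all genes 0.378% were higher and 0.486% lower by the first rule, and 0.621% and 0.563% by the looser rule. At such shares 0 calls in a list this short is no result about it. TCF4 stood at 59.2 and 48.4 CPM, a difference of 0.28 with bounds of 0.06 and 0.51. TCF3 (17.2 and 18.4 CPM) and TCF12 (10.2 and 11.2 CPM) had bounds that included 0. TWIST1, a mesenchymal helix-loop-helix factor, stood at 21.9 and 17.5 CPM and TWIST2 at 3.41 and 3.81 CPM.

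After ID2, the higher genes began with CCND1, which encodes cyclin D1, the driver of G1 progression. CCND1 stood at 75.1 CPM in the class (68.1 to 82.7) and 42.5 CPM below it (40.4 to 44.8), a difference of 0.81. It had a UMI in 25.8% of class cells and 16.0% of the others, or in 12.9% and 7.69% after thinning. Along the level of ID1 and ID3 it stood at 32.3 CPM in cells under 5 per 10,000, at 55.1 and 59.6 CPM in the next 2 bins and at 66.2, 87.1 and 78.3 CPM in the 3 bins of the class. SERTAD1, a regulator that binds the cyclin D partner CDK4, stood at 70.8 and 43.7 CPM (difference 0.68). Of the other G1 genes tested, CCND2 differed by 0.20, CDK4 by 0.08 and CCND3 by -0.01. Of 6 cell cycle inhibitors with UMIs, CDKN2C, an inhibitor of CDK4 and CDK6, was lower at 79.6 against 116 CPM (difference -0.54), and CDKN1A stood at 27.1 and 35.5 CPM (difference -0.38). The call of CDKN2C held in 8 of 16 alternative settings, and its difference was -0.39 after thinning to 2500 UMIs.

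Other genes near the top of the order follow. CRISPLD2, a secreted glycoprotein, stood at 55.0 CPM in the class and 31.5 CPM below it, a difference of 0.79. PLAT, the tissue plasminogen activator, stood at 57.2 and 38.9 CPM, a difference of 0.54. Its call held in 11 of 16 alternative settings, and the difference was 0.48 at a cut of 10 per 10,000. CD9, a tetraspanin of the MSC surface, stood at 283 and 202 CPM, and its difference of 0.49 was just short of the call. TIMP1, an inhibitor of metalloproteinases, stood at 983 and 725 CPM, and its difference of 0.44 did not reach the call. CALCA, which encodes calcitonin and CGRP, stood at 81.8 and 53.0 CPM (difference 0.61), but 10 class cells held 53.5% of its class UMIs and 1 of them held 45. A UMI of CALCA was found in 11.2% of class cells and 11.0% of the others. CALCA thus differed in its sum and not in the share of cells, and among cells called G1 its difference was -0.15.

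The other called genes with a symbol are of mixed function. RASL11A, a Ras-like small GTPase, stood at 65.1 and 37.8 CPM (difference 0.77). CRYL1, an enzyme of the glucuronate pathway, differed by 0.67, BCKDHB, a subunit of the enzyme that breaks down branched-chain keto acids, by 0.61, and BLVRA, biliverdin reductase, by 0.59. MEDAG, a gene linked to adipogenesis, stood at 153 and 106 CPM (difference 0.52), and PRRX2, a homeobox gene of mesenchyme, at 71.0 and 49.9 CPM (difference 0.50). The call of MEDAG held in 9 of 16 alternative settings and that of PRRX2 in 6. FHL2, a LIM domain protein, followed at 0.48. Of the adipocyte list, 0 of 4 tested genes were called, with PLIN2 at 0.23, FABP5 at 0.36 and CEBPD at -0.35. Over all 3707 genes 0.378% were called higher and 0.486% lower.

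Among the lower genes the contractile proteins of smooth muscle stood out in number. Of 18 genes on that list, 13 were tested, 7 of these were lower and 0 higher, and the median was -0.52 beside 0.04 over all genes. Over all 3707 genes 0.486% were lower and 0.378% higher. DES, the intermediate filament protein desmin, stood at 108 CPM in the class (99.1 to 117) and 220 CPM below it (215 to 225), a difference of -1.02. CNN1, calponin, stood at 56.8 and 114 CPM, a difference of -0.99. ACTG2, the gamma actin of smooth muscle, stood at 235 and 452 CPM, a difference of -0.94. MYL9, a myosin light chain, stood at 438 and 698 CPM, a difference of -0.67. LMOD1, an actin nucleator, differed by -0.62, NEXN, an actin binder, by -0.52, and ACTA2, smooth muscle alpha actin, by -0.52 at 526 and 753 CPM. Below 25 CPM, MYH11, the smooth muscle myosin heavy chain, stood at 3.05 and 6.22 CPM, and MYLK and SYNPO2 met the looser rule as well. ACTA2 and ACTG2 have similar coding sequences, and how reads common to both were assigned was not checked here.

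The list summed to 5967 CPM in the class and 8133 CPM below it. Per cell, the median sum was 44.0 per 10,000 UMIs in the class and 55.4 below it. Cells of the class were found at every contractile level. They made up 18.7% (16.6 to 20.8) of the quartile of AT cells with the lowest contractile sum, 16.4% and 13.6% of the next 2 and 8.66% (7.21 to 10.3) of the quartile with the highest. Within these quartiles, an alternative chosen after seeing the data, the difference of ID2 was 1.78, while DES went to -0.32, ACTG2 to -0.335 and MYL9 to -0.26, as the comparison then holds the sum of these genes nearly level. CNN1 went from -0.99 to -0.51, just past the call. The sizes also moved with the cut and depth. At a cut of 10 the difference of ACTG2 was -0.46 and that of LMOD1 -0.32, and after thinning to 2500 UMIs MYL9 was at -0.48 and LMOD1 at -0.45, all short of the call.

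**Figure D4:**
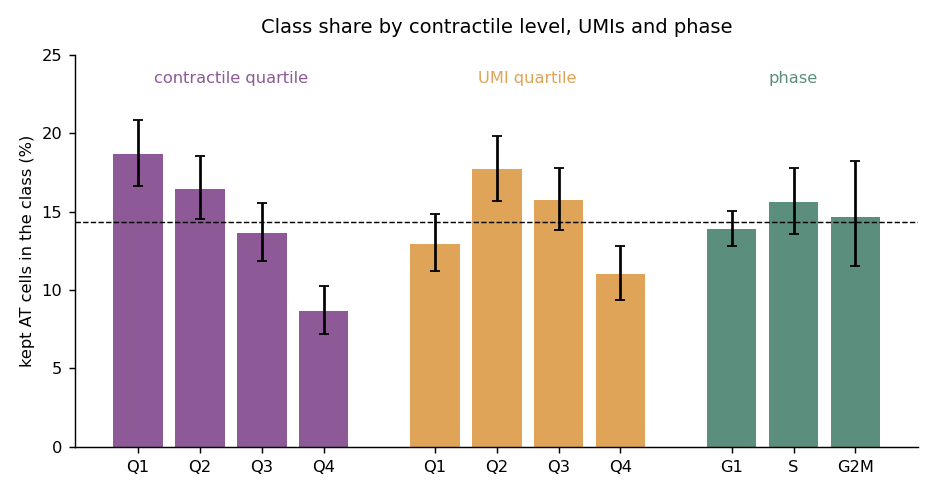
Share of kept AT cells in the class, in percent with 95% Clopper-Pearson intervals, by quartile of the summed contractile list per cell (Q1 lowest), by quartile of UMIs per cell (Q1 shallowest) and by called cell cycle phase. The dashed line is the share of 14.3% over all kept AT cells. The share falls from 18.7% to 8.66% over the contractile quartiles and lies near the line in each phase.

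ACTG2 and DES were lower in each bin of the class than in each bin below the cut. ACTG2 stood at 474, 425 and 417 CPM in the 3 bins below the cut and at 275, 205 and 136 CPM in the 3 bins of the class. DES stood at 251, 177 and 172 CPM below and at 137, 82.7 and 42.9 CPM above. Between the bins of 5 to under 10 and 10 to under 20 per 10,000, the counting intervals of both genes overlapped. For ACTA2 the values went from 822 CPM in cells under 5 per 10,000 to 397 CPM in cells at 50 or more.

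Beyond the contractile list, ADM, which encodes the hypoxia-induced vasodilator adrenomedullin, stood at 507 and 766 CPM, a difference of -0.59. Of the 13 tested hypoxia genes ADM was the 1 that was called, and BNIP3 came next at 398 and 549 CPM (-0.46). MFAP4, an elastic fibre protein, stood at 122 and 188 CPM (-0.62), and COL12A1, a fibril-associated collagen, at 59.7 and 86.7 CPM (-0.53). The MFAP4 difference was -0.49 at a cut of 10 per 10,000, -0.44 after thinning to 2500 UMIs and -0.40 within quartiles of the contractile list. UPK3B, a mesothelial and urothelial membrane protein, stood at 21.0 and 40.7 CPM (-0.92), and WFDC1, a secreted protein with a WAP domain, at 21.7 and 32.6 CPM (-0.57). WWP1, a ubiquitin ligase, differed by -0.81, RAB30, a small GTPase of the Golgi, by -0.69, BDNF, a neurotrophin, by -0.68 and GLRB, a glycine receptor subunit, by -0.68, each at 15.4 to 24.4 CPM in the class. After thinning to 2500 UMIs, WWP1 differed by -0.45, GLRB by -0.45 and BDNF by -0.27, and within quartiles of the contractile list BDNF differed by -0.14. WFDC1 differed by -0.21 at a cut of 10 per 10,000 and by -0.14 within those quartiles, and COL12A1 by -0.31 with class and genes read from separate UMIs. Of 12 tested TGF-beta responsive genes, ACTA2 alone was called, with THBS1 at -0.46 and TAGLN at -0.39. Of 8 collagens tested, COL12A1 was the 1 that was called, and COL1A1 stood at 5722 and 6346 CPM (-0.15). Beside these counts of the hypoxia, TGF-beta and collagen lists, 0.486% of all 3707 genes were called lower and 0.378% higher.

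In the remaining lists few genes were called. Over all 3707 genes 0.378% were called higher and 0.486% lower, so 0 calls in lists this short is no result about them. No member was called among the tested genes of proteoglycans (5 genes, LUM 0.34), matrix proteases and inhibitors (9, TIMP1 0.44), immediate early genes (11, JUNB 0.34), YAP targets (5, AJUBA -0.16), WNT genes (3, TCF7L2 -0.14), Notch genes (1, NOTCH2 -0.08), IGF axis genes (5, IGFBP5 -0.39), interferon response genes (4, B2M 0.24) and integrated stress response genes (12, ATF5 -0.40). The same held for heat shock genes (8, HSPA8 -0.25), cholesterol synthesis genes (8, INSIG1 0.26), mitochondrially encoded genes (10, ND3 0.14), pericyte genes (2, NDUFA4L2 -0.27), osteoblast genes (2, COL1A1 -0.15), tendon genes (2, EGR1 0.29) and the 1 epithelial gene tested (KRT8, -0.35). Of 57 tested genes of the cytosolic ribosomal list, taken by the name prefix RPL or RPS, 52 were slightly lower, with a median of -0.05. The prefix also takes in RPS19BP1 and paralogues such as RPL7L1, so the list is not limited to ribosomal proteins. The 9 tested MSC surface genes had a median of 0.17, with ENG the 1 that was called, and THY1 stood at 737 and 653 CPM (0.17). No gene of the chondrocyte, Schwann and neural, haematopoietic or chemokine and cytokine lists reached 25 CPM. CCL26, a chemokine outside the list, stood at 136 and 102 CPM (0.41).

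Under the looser rule, by which 0.621% of all 17240 genes were higher and 0.563% lower, genes below 25 CPM in several of these lists also differed. The Notch ligand JAG1 was lower (4.48 and 8.95 CPM, -0.86), beside HES1 of the same list. DKK1, a secreted WNT antagonist, was higher (21.5 and 9.53 CPM, difference 1.096), and ANKRD1, a YAP target, was lower (7.17 and 18.1 CPM, difference -1.22). The growth factor IGF2 (11.8 and 19.1 CPM, -0.64) and the proteoglycan PODN (3.05 and 6.10 CPM, -0.81) were lower. Of 18 collagens with UMIs, 1 was higher (COL8A2, 1.03) and 3 lower, COL12A1, COL14A1 (-0.74) and COL11A1, which is also on the chondrocyte list (6.28 and 10.8 CPM, -0.70). Of 16 chemokine and cytokine genes with UMIs, CXCL8 was higher (1.26 and 0.174 CPM), and IL33 (3.41 and 9.62 CPM, -1.27), IL11 (-0.63) and SAA1 (-1.26) were lower. CXCL8 rests on few UMIs. For the genes below 25 CPM named in this paragraph, how the UMIs spread over cells was not examined. Among TGF-beta responsive genes SKIL and SMAD7 were higher, and ACTA2, TGFB1 (-0.63) and TGFBI (-0.64) were lower. Of the matrix protease list, ADAMTS1 (0.52) was higher and TIMP3 (-0.66) and MMP3 (-1.06) were lower. ADM and ANKRD37 (-0.60) of the hypoxia list were lower, and PSMB9 (0.67) of the interferon list and NES (0.81) of the neural list were higher. The adipocyte, pericyte, osteoblast, tendon, epithelial, immediate early, stress, heat shock, cholesterol, mitochondrial and ribosomal lists had 0 genes in either direction.

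Cells called cycling were about as frequent in the class as below it. By scores of 40 S phase and 52 G2M genes, 253 of 775 class cells (32.6%, interval 29.4 to 36.1) were called S or G2M, against 1397 of 4628 (30.2%, interval 28.9 to 31.5). After thinning to 2500 UMIs the shares were 37.2% and 37.1%. The class held 13.9% of the cells called G1, 15.6% of those called S and 14.7% of those called G2M. Of 15 tested G2M genes and 9 tested S phase genes 0 were called, with medians of -0.01 and 0.10. Over all 3707 genes 0.378% were called higher and 0.486% lower. Below 25 CPM, the S phase gene HELLS (0.75) met the looser rule. Phase calls read free RNA as well, which was not measured.

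The class cells were spread among the other AT cells when ID1 to ID4 were left out of the embedding. Of the 20 nearest neighbours of a class cell over 20 principal components, a mean of 20.4% were in the class. Around a cell below the cut the mean was 13.8%, and the class makes up 14.3% of all cells. Of the 775 class cells, 9 had more than 50% of their neighbours in the class and 34 had none.

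The same rule in BM and PB was compared gene by gene with its result in AT. In BM 67 of 4209 genes were higher (1.59%) and 32 lower (0.760%), and in PB 454 of 3826 genes were higher (11.9%) and 284 lower (7.42%). The PB class had a median of 8990 UMIs against 7697 below its cut, and 55.6% of it was called S or G2M against 20.7%. In BM these shares were 34.1% and 27.2%, at medians of 6856 and 6897 UMIs. The part of depth and phase in the PB differences was not tested.

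Of the 14 genes higher in AT, 2 were also higher in BM (14.3% of the AT genes and 2.99% of the BM genes), and these were ID2 and CALCA. In PB 7 of the 14 were also higher (50% and 1.54%), which were ID2, CCND1, CRISPLD2, SERTAD1, CRYL1, BCKDHB and MEDAG. None of the 14 was called lower in BM or PB, where 12 and 9 of them were tested. Of all genes tested there, 1.59% were called higher in BM and 11.9% in PB, and 0.760% and 7.42% lower. At these shares 0 lower calls among so few genes is no result about them. CCND1 differed by -0.11 in BM at 322 and 347 CPM and by 1.30 in PB at 408 and 165 CPM. CALCA had no UMI in the class or below it in PB.

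The contractile genes had a median below 0 in AT and BM and above 0 in PB, and the difference between sources was not tested. The 13 tested genes had a median of -0.52 in AT, -0.20 in BM and 0.33 in PB. ACTG2 was higher in the class of BM, at 242 against 153 CPM (0.66), and in that of PB, at 294 against 34.5 CPM (3.05). CNN1 differed by -0.23 in BM and by 1.15 in PB, where it stood at 68.6 and 30.4 CPM. DES was near the floor in PB (0.348 and 0.284 CPM) and low in BM (8.63 and 3.10 CPM), where its difference of 1.23 was opposite in sign to that in AT. MYL9 stood at 424 and 571 CPM in BM (-0.43) and at 434 and 350 CPM in PB (0.31). CDKN2C, lower in AT, stood at 107 and 28.1 CPM in PB (1.88). Of the 18 genes lower in AT, 14 were tested in BM and 10 in PB. Among them 1 with a symbol, WFDC1, was lower in both other sources, by -0.78 in BM and -0.87 in PB. The shares called lower over all genes tested were 0.760% in BM and 7.42% in PB.

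**Figure D5:**
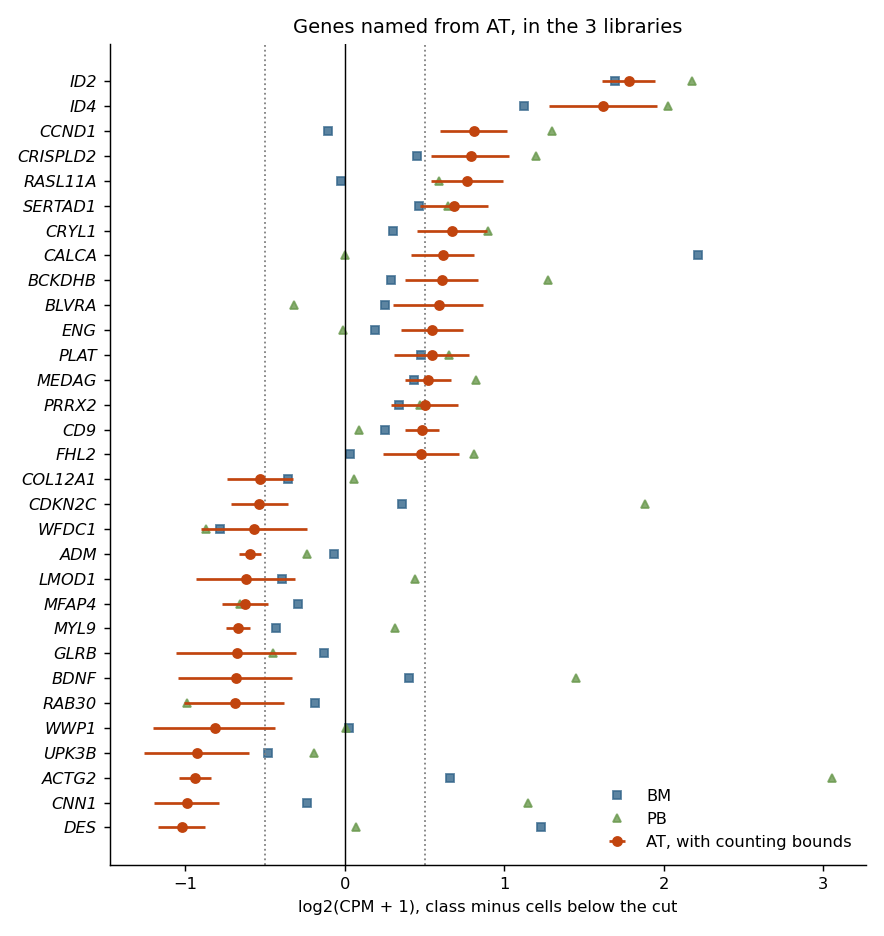
Difference of log2(CPM + 1) between the cells taken by the rule and those below it for ID4 and the 30 genes with a symbol and the largest differences in AT. Circles are AT with bounds from the counting intervals, squares BM and triangles PB, and dotted lines mark 0.5 either way. ID2 and ID4 lie to the right of 1 in all 3 libraries, whereas ACTG2 lies at -0.94 in AT, 0.66 in BM and 3.05 in PB.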

How the data were processed

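MSCs of 3 sources of a single mare were sequenced with the 10x Genomics 3′ kit (version 2), 1 library per source. Per the labels and the study's methods, Cell Ranger aligned the reads to EquCab3.0, and ESAT then counted UMIs per gene, also just downstream of annotated ends, with exons that overlap on opposite strands left out. The files the authors deposited hold raw UMI counts, a whole number for each gene in each barcode. The matrices of AT, BM and PB sum to 48688055, 45327399 and 47380686 UMIs in 11757, 6455 and 6180 barcodes. The study removed putative multiplets with DoubletDetection, which was not run here. Whether this was done before deposit is not given in the sources used here, and the upper UMI limit and the Scrublet alternative bear on them.

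Barcodes were kept and the class was chosen as described above. UMIs were summed over cells and scaled to CPM, and differences are of log2(CPM + 1) among genes with at least 25 CPM over all kept AT cells, called at 0.5. Intervals are 95% exact Poisson or Clopper-Pearson intervals and cover counting error only. Phases, thinning, principal components (3000 variable genes) and Scrublet scores used Scanpy 1.11.5, NumPy 2.4.6, SciPy 1.17.1 and seed 7. The arithmetic was tested on simulated counts. Named genes are ID1 to ID4, the BMP and E protein lists, the 15 genes with a symbol and the largest difference in each direction, and up to 4 members of each other list. CCL26, genes named by the looser rule outside the BMP lists and the genes of other lineages were named after their values were seen. The members and lists were chosen with earlier results of these data known. Alternatives changed the cut, the filters, depth, phase, scale, gene minimum and threshold. Ensembl identifiers without a symbol were not paired with names, and no sequences are given. Some members of the lists are not reported here.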

Additional observations from a re-analysis of the deposited data

Results flagged for a closer look

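For 3 of the named genes with a symbol that differed by 0.5 or more in AT, the cells taken by the same rule in another source, in which the gene had at least 25 CPM, differed by 0.5 or more in the opposite direction. The difference between the sources was not tested, as each has 1 library. The shares called higher over all genes tested were 1.59% in BM and 11.9% in PB. CNN1 was lower in the AT class (-0.99) and higher in the PB class (1.15). ACTG2 was lower in AT (-0.94) and higher in BM (0.66) and PB (3.05). CDKN2C was lower in AT (-0.54) and higher in PB (1.88), and its call in AT held in 8 of 16 alternatives. Under 25 CPM in the other library, DES differed by 1.23 in BM and BDNF by 1.45 in PB, against -1.02 and -0.68 in AT. In PB the median UMIs per cell (8990 against 7697) and the share of cells called S or G2M (55.6% against 20.7%) were also higher in the cells taken by the rule. Their part in these values was not tested.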

How the results depend on the processing

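The class share of 14.3% was 30.8% at a cut of 10 and 6.70% at a cut of 30, 12.2% over every barcode with at least 500 UMIs and 17.3% after thinning to 2500 UMIs. The 14 higher and 18 lower genes became 31 and 38 at a cut of 30, and 11 genes were lower at a cut of 10. Thinning gave 23 higher genes and the split of the UMIs 22. A pseudocount of 25 CPM gave 4 higher and 8 lower genes, a minimum of 10 CPM gave 31 and 49, a minimum of 100 CPM gave 1 and 10, and no minimum gave 392 and 450. A threshold of 0.3 gave 115 and 72, and a threshold of 1 gave 1 and 1. Cells called S or G2M gave 36 lower genes and quartiles of the contractile list 7, both alternatives chosen after seeing the data. The ID2 difference of 1.78 was 1.55 after thinning and 1.38 with a pseudocount of 25 CPM, and it passed 0.5 in 16 of 16 alternatives, as did that of ID4, which ranged from 0.74 to 1.77. The BMP target median of 0.34 was 0.47 at a cut of 30, 0.21 over every barcode with at least 500 UMIs, 0.21 with a pseudocount of 25 CPM and 0.16 with no minimum CPM, and positive throughout. The share of class cells called S or G2M was 46.9% over every barcode with at least 500 UMIs and 36.9% after thinning. With the class as first chosen, thinning gave 37.2% in the class and 37.1% below the cut. For the barcodes with at least 500 UMIs the share below the cut is not given here, so 46.9% has no comparison. The share of neighbours in the class was 38.3% at a cut of 10 and 11.4% at a cut of 30, where the class itself changes in size. Alternatives were run gene by gene for ID4 and the 15 genes with a symbol and the largest difference in each direction. Of the 28 of these 30 that were called, 7 (ID2, CCND1, CRISPLD2, RASL11A, CNN1, UPK3B and ADM) passed 0.5 in 16 of 16 alternatives and 21 in fewer, down to 6 for PRRX2. CALCA turned to -0.15 among cells called G1, the 1 change of sign among these genes. The cause of these changes was not tested, apart from counts that follow from the threshold or the gene minimum itself. Genes under 25 CPM rest on few UMIs per cell, and 3 UMIs of the class come to 0.538 CPM.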
